A study of Bos taurus and Sus scrofa with 10 samples.

Results

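The enzymes that place new DNA methylation and those that write methylation on lysine 36 of histone H3 (H3K36) were followed as RNA through the first days of cow and pig development. DNMT3A, DNMT3B, SETD2 and NSD1 were taken by symbol from a table of 22845 gene rows for cow (Bos taurus) and one of 21867 gene rows for pig (Sus scrofa). Of 5 listed symbols 4 matched a row, with 1 row per symbol in each table; DNMT3L matched no row and is not analysed here. Each species had 5 groups: oocytes, embryos at the 2-4 cell stage and at the 8-16 cell stage, morulae (a ball of compacting cells) and blastocysts (hollow, with an outer trophectoderm around the cells that form the embryo). Each group had 1 library of total RNA, 10 libraries in all. The labels name no genotype, strain, treatment, age or embryo source for any group, nor the number of oocytes or embryos pooled into one library. The series belongs to a study of DNA methylation before implantation and its differences between species.

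DNMT3A and DNMT3B add methyl groups to CpG sites that carry none, and DNMT3L is a cofactor of theirs with no catalytic activity of its own. SETD2 travels with elongating RNA polymerase II and is the main enzyme that trimethylates H3K36 along transcribed genes, and NSD1 dimethylates H3K36 over wider regions, also between genes. The PWWP domains of DNMT3A and DNMT3B bind methylated H3K36, so these histone marks help to set where new DNA methylation is placed. In the mouse oocyte, where the DNA methylation of transcribed genes is laid down during growth, SETD2 is needed for its normal pattern. In the mouse, DNA methylation falls through the cleavage stages after fertilisation and is placed again around implantation. Its timing in cow and pig was not tested here.

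The 8 gene spans were overlapped by 0 other rows of their tables. In cow, DNMT3A was listed on chromosome 11, 74030425 to 74059688 (plus strand), DNMT3B on chromosome 13, 62700411 to 62721124 (plus strand), SETD2 on chromosome 22, 53011796 to 53070746 (plus strand), and NSD1 on chromosome 7, 39982435 to 40123961 (plus strand). In pig, DNMT3A was listed on chromosome 3, 113502333 to 113609129 (plus strand), DNMT3B on chromosome 17, 36332801 to 36426437 (plus strand), SETD2 on chromosome 13, 29884710 to 29996359 (minus strand), and NSD1 on chromosome 2, 80654373 to 80809689 (minus strand). The submitters' processing notes name the cow assembly UMD3.1 and the pig assembly Sscrofa11.1 without tying them to a table. The cow row of DNMT3A spans 29264 bases and the pig row 106797 bases, and the cow row of DNMT3B spans 20714 bases and the pig row 93637 bases. Whether the same exons were counted in both species is not given in the sources used here, so levels were compared between stages of a species and not between the species. The tables hold 1 value per gene, and transcript isoforms are not separated.

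Values are reads per 1000000 reads of the library (RPM), which are not divided by gene length and therefore compare a gene between stages, not genes with each other. A gene was compared between stages if it reached 1 RPM in either, and a rise or fall was called at a difference of 2 or more on the log2(RPM + 1) scale. That is 4-fold for abundant genes and more than 4-fold in RPM for low ones, because of the added 1 RPM. Read totals lay between 3899291 and 14182046 in cow, where the blastocyst library was the deepest, and between 3002751 and 4138616 in pig. A count of 0 reads allows up to 0.212 RPM in the deepest library and up to 0.9991 RPM in the shallowest. Mitochondrial genes took between 2.74% and 30.2% of the reads in cow and between 6.06% and 18.6% in pig, with the highest share in both blastocyst libraries. The RPM of a nuclear gene is lower where this share is larger, and values on reads without mitochondrial genes stand beside the calls of the members that they change. The 14 oocyte markers with a row summed to 9228 RPM in the cow oocyte library and 1.48 RPM in the cow blastocyst library, and to 11986 and 60.6 RPM in pig. The 15 blastocyst markers with a row in cow went from 154.97 to 4164 RPM, and the 14 in pig from 84.4 to 8975 RPM. Cumulus cell markers, which would show somatic cells around the oocyte, had at least 1 RPM in 8 of 20 genes in the cow oocyte library and in 6 of 15 in the pig oocyte library. Their sums were 347 and 83.5 RPM there, and 42.1 to 352 RPM and 45.96 to 94.1 RPM across all libraries of cow and pig. In the cow oocyte library STAR stood at 157 RPM (774 reads), HAS2 at 141 RPM (694 reads) and FSHR at 37.3 RPM (184 reads), and in the pig oocyte library STAR stood at 43.2 RPM and GREM1 at 17.5 RPM. COL1A1, COL3A1 and INHA had 0 reads in both oocyte libraries, and FOXL2 and AMH in that of cow. The part of other cells in the results below was not tested. With 1 library per group no difference has a replicate check, and the 95% intervals given cover counting error only, since amplified reads are not independent molecules. In bulk libraries of whole embryos, fewer cells of a type and less RNA per cell cannot be told apart.

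The gene for the methyltransferase DNMT3A reached its lowest level in the morula library of both species, and it was highest in the blastocyst in cow but before the morula in pig. In the cow libraries DNMT3A stood at 13.6 RPM in the oocyte (67 reads), 19.2 RPM at the 2-4 cell stage (85 reads), 5.71 RPM at the 8-16 cell stage (31 reads), 1.03 RPM in the morula (4 reads) and 178 RPM in the blastocyst (2521 reads). The oocyte and 2-4 cell intervals overlapped (10.7 to 17.3 and 15.5 to 23.7 RPM), and those of the later stages were apart from each other and from these. Between the cow morula and blastocyst DNMT3A was 173-fold higher (95% interval 67.6 to 636), a difference of 6.46 on the log2(RPM + 1) scale. The width of that interval comes from the 4 reads of the morula library.

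In the pig libraries DNMT3A stood at 175 RPM in the oocyte (590 reads), 166 RPM at the 2-4 cell stage (685 reads), 176 RPM at the 8-16 cell stage (557 reads), 20.98 RPM in the morula (63 reads) and 42.4 RPM in the blastocyst (158 reads). The first 3 stages had overlapping intervals, and both later stages were below them. The morula library was 8.39-fold below the 8-16 cell library (6.45 to 11.06), a difference of -3.01. The blastocyst library was 2.02-fold above the morula library (1.499 to 2.75), a difference of 0.98 that was not called. In cow the 8-16 cell library was already lower: DNMT3A was 3.36-fold lower at the 8-16 cell stage than at the 2-4 cell stage (2.20 to 5.24), a difference of -1.59, and the pig libraries differed by 0.09 there.

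DNMT3B, the partner enzyme that also methylates pericentromeric repeats, had its lowest value in the morula libraries as well. In cow its levels were 109.7 RPM in the oocyte (541 reads), 139 RPM at the 2-4 cell stage (619 reads), 11.4 RPM at the 8-16 cell stage (62 reads), 3.59 RPM in the morula (14 reads) and 157 RPM in the blastocyst (2231 reads). The cow intervals did not overlap when ordered by level, although those of the 2-4 cell stage and the blastocyst nearly touched, and the oocyte, 2-4 cell and blastocyst libraries formed the high end. In the 8-16 cell library DNMT3B was 12.2-fold lower than at the 2-4 cell stage (9.40 to 16.1), a difference of -3.50, and only 1.16% of the genes compared at that step fell as far. From the morula to the blastocyst it rose 43.8-fold (26.1 to 80.3), a difference of 5.11. The blastocyst level was 1.43-fold that of the oocyte (1.30 to 1.58), a difference of 0.52 that was not called. Scaling moved this difference beyond the counting interval without a call. It was 0.34 on reads in gene rows, 0.92 on reads without mitochondrial genes and 0.97 with quantile normalisation.

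In pig DNMT3B stood at 412 RPM in the oocyte (1392 reads), 414 RPM at the 2-4 cell stage (1715 reads), 282 RPM at the 8-16 cell stage (892 reads), 91.6 RPM in the morula (275 reads) and 114 RPM in the blastocyst (424 reads). The oocyte and 2-4 cell libraries were not told apart by counting error, and the 3 later libraries were below both. The largest drop between neighbouring stages was that of the morula against the 8-16 cell library, 3.08-fold (2.68 to 3.53), a difference of -1.61 that was not called. The pig blastocyst library was 1.24-fold above the morula library (1.06 to 1.45) and 3.63-fold below the oocyte library (3.25 to 4.05).

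**Figure D1:**
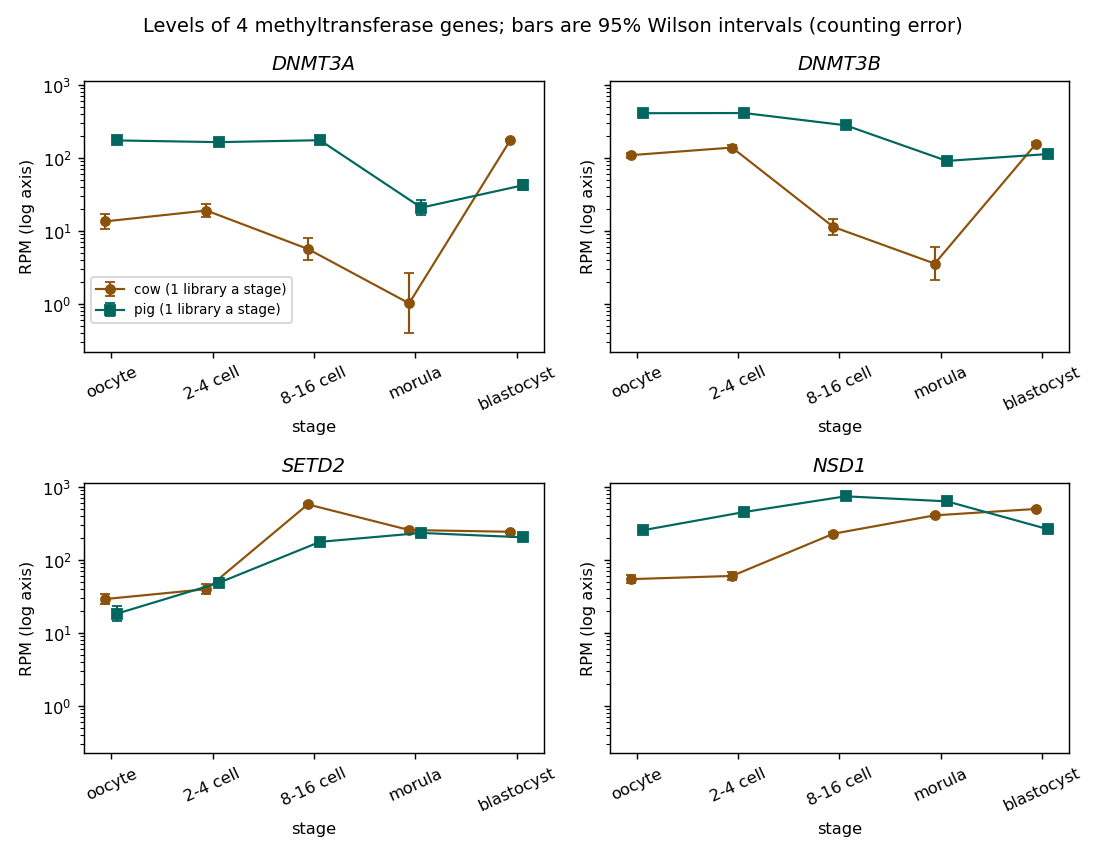
Levels of DNMT3A, DNMT3B, SETD2 and NSD1 in RPM on a log axis by stage, for cow (circles) and pig (squares), 1 library per point; bars are 95% Wilson intervals for counting error. Both DNMT3 genes have their lowest point in the morula library, with 1.03 and 3.59 RPM in cow and 20.98 and 91.6 RPM in pig, while SETD2 has its lowest point in the oocyte library of both species.

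The H3K36 methyltransferase gene SETD2 had its lowest level in the oocyte library and higher levels in every library after the 2-4 cell stage in both species. In cow SETD2 stood at 29.0 RPM in the oocyte (143 reads), 39.7 RPM at the 2-4 cell stage (176 reads), 574 RPM at the 8-16 cell stage (3120 reads), 256 RPM in the morula (998 reads) and 242 RPM in the blastocyst (3434 reads). The 8-16 cell library was the highest, and the morula and blastocyst intervals overlapped (241 to 272 and 234 to 250 RPM). Between the 2-4 cell and 8-16 cell libraries SETD2 rose 14.5-fold (12.4 to 17.0), a difference of 3.82 that 3.21% of the genes compared reached or passed. It was then 2.24-fold lower in the morula (2.09 to 2.41), a difference of -1.16. The small cow difference from the morula to the blastocyst, -0.08, turned to 0.20 on reads without mitochondrial genes and was above 0 with 2 further scalings.

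In pig SETD2 stood at 18.4 RPM in the oocyte (62 reads), 48.3 RPM at the 2-4 cell stage (200 reads), 176 RPM at the 8-16 cell stage (558 reads), 233 RPM in the morula (701 reads) and 203 RPM in the blastocyst (759 reads). The increase was spread over several libraries: each of the first 2 steps, 2.63-fold (1.97 to 3.56) and 3.65-fold (3.098 to 4.31), was not called. The blastocyst interval overlapped those of the morula and the 8-16 cell stage. From oocyte to blastocyst SETD2 rose by 3.40 in pig, 11.09-fold (8.55 to 14.6), and by 3.02 in cow, 8.35-fold (7.06 to 9.94). Of the 4 genes, SETD2 was the one called with the same direction over the whole course in both species.

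NSD1, which writes H3K36 dimethylation, was also lowest in the oocyte libraries, but its later course differed between the tables. In cow its levels were 54.4 RPM in the oocyte (268 reads), 60.2 RPM at the 2-4 cell stage (267 reads), 228 RPM at the 8-16 cell stage (1237 reads), 406 RPM in the morula (1585 reads) and 497 RPM in the blastocyst (7055 reads). The first 2 intervals overlapped and every later library was above the one before it. NSD1 rose 9.15-fold from oocyte to blastocyst in cow (8.10 to 10.4), a difference of 3.17. Its largest single step, 3.79-fold between the 2-4 cell and 8-16 cell libraries (3.31 to 4.34), gave a difference of 1.90, just under the rule, and of 2.13 on reads without mitochondrial genes.

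In pig NSD1 stood at 254 RPM in the oocyte (859 reads), 452 RPM at the 2-4 cell stage (1869 reads), 741 RPM at the 8-16 cell stage (2346 reads), 632 RPM in the morula (1898 reads) and 262 RPM in the blastocyst (978 reads). The profile was an arch whose 2 ends were not told apart by counting error, with a blastocyst to oocyte ratio of 1.03 (0.940 to 1.13). The highest library was 2.91-fold above the lowest (2.69 to 3.15), the smallest range of the 4 genes in either species. From the pig morula to the blastocyst NSD1 was 2.41-fold lower (2.23 to 2.61), a difference of -1.27.

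Counted together, 4 of 16 member differences at consecutive steps were called in cow, where 16.1% of all differences compared at these steps were called, and 1 of 16 in pig, against 15.7%. Between cow oocytes and 2-4 cell embryos 0 of 4 were called, with 0.374% of 11226 genes called. Between cow 2-4 cell and 8-16 cell embryos 2 of 4 were called, SETD2 higher and DNMT3B lower, with 27.2% of 12405 genes called, 12.6% higher and 14.6% lower. At the cow step to the morula 0 of 4 were called (11.8% of 12334 genes), although 3 of 4 were lower, with a median of -1.30 against 0.07 for all genes compared. DNMT3A was 5.56-fold lower there in RPM (1.97 to 21.7), a difference of -1.73 at its low level. At the cow step to the blastocyst 2 of 4 were called, both DNMT3 genes higher, with 23.4% of 12653 genes called and 11.9% called higher. The pig steps gave 0 of 4 to the 2-4 cell stage (5.43% of 11362 genes), 0 of 4 to the 8-16 cell stage (4.87% of 12153 genes), 1 of 4 to the morula (23.3% of 12746 genes, 11.3% lower), which was DNMT3A lower, and 0 of 4 to the blastocyst (27.6% of 12567 genes).

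With the blastocyst set against the oocyte, 3 of 4 genes were called higher in cow, DNMT3A, SETD2 and NSD1, with 40.2% of 12738 genes called in either direction 21.8% called higher and 18.4% lower. In pig 1 was called higher, SETD2, and 1 lower, DNMT3A, with 45.2% of 12512 genes called, 26.0% higher and 19.2% lower. The pig call of DNMT3A was close to the rule at -2.02, and at -1.91 on reads without mitochondrial genes it was not made. Counts over 4 genes are small, and nothing is read from them beyond the genes named. DNMT3A from the cow morula to the blastocyst was at the edge of the distribution: 0.134% of the genes compared rose as far, and for DNMT3B the share was 0.561%.

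**Figure D2:**
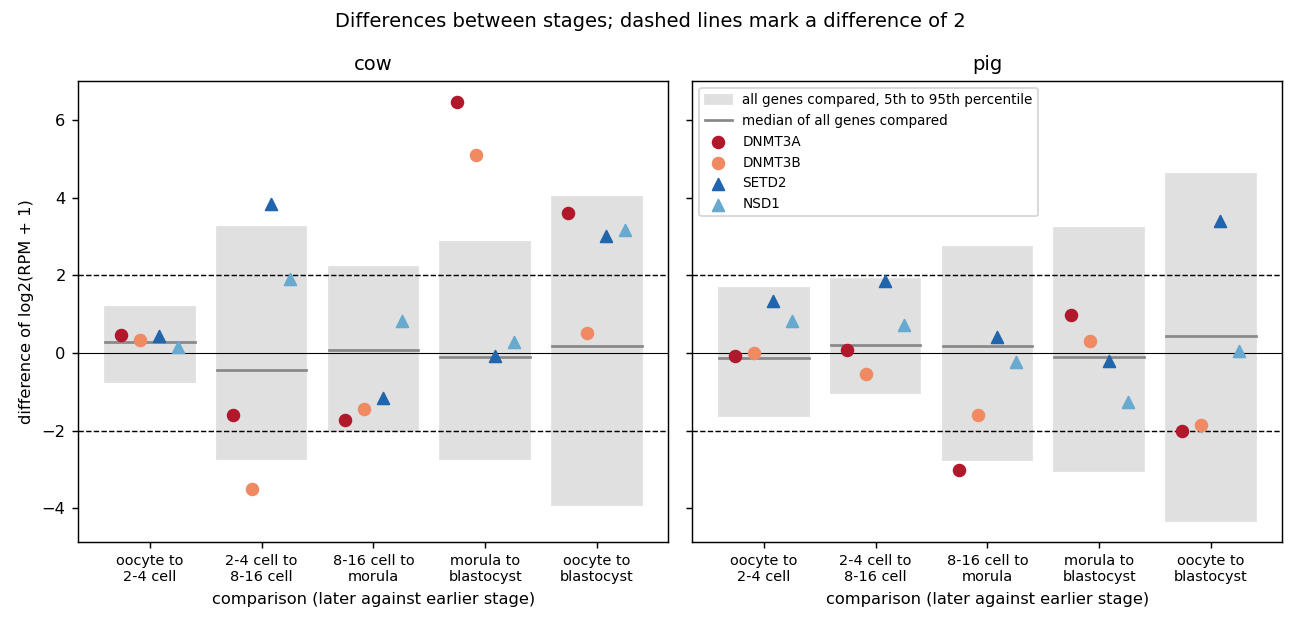
Differences of log2(RPM + 1) between stages for the 4 genes (circles for DNMT3 genes, triangles for SETD2 and NSD1), in cow (left) and pig (right); grey boxes run from the 5th to the 95th percentile of all genes compared, grey lines are their medians and dashed lines mark the call rule at 2. The cow DNMT3A and DNMT3B differences of 6.46 and 5.11 from morula to blastocyst lie above the grey box, where the pig differences are 0.98 and 0.31.

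Ratios of 2 genes within 1 library do not depend on how libraries are scaled, and both ratios below differed between stages by more than counting error. In cow there were 0.124 reads of DNMT3A per read of DNMT3B in the oocyte library (95% interval 0.0946 to 0.160), 0.137 at the 2-4 cell stage (0.108 to 0.172), 0.500 at the 8-16 cell stage (0.314 to 0.781), 0.286 in the morula (0.0685 to 0.910) and 1.13 in the blastocyst (1.067 to 1.197). The cow blastocyst library thus held more DNMT3A relative to DNMT3B than each earlier cow library. In pig the same ratio was 0.424 (0.384 to 0.467), 0.399 (0.365 to 0.437), 0.624 (0.561 to 0.695), 0.229 (0.171 to 0.302) and 0.373 (0.308 to 0.448) in the order of the stages. The pig ratio was highest at the 8-16 cell stage and lowest in the morula, and its oocyte and blastocyst intervals overlapped.

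For the H3K36 pair, cow libraries held 0.534 reads of SETD2 per read of NSD1 in the oocyte (0.432 to 0.656), 0.659 at the 2-4 cell stage (0.542 to 0.8003), 2.52 at the 8-16 cell stage (2.36 to 2.70), 0.630 in the morula (0.581 to 0.682) and 0.487 in the blastocyst (0.467 to 0.507). The cow 8-16 cell library stood apart from the other 4, which lay close together. In pig the ratio was higher in each later library, with 0.0722 in the oocyte (0.0549 to 0.0935), 0.107 (0.0920 to 0.124), 0.238 (0.216 to 0.261), 0.369 (0.338 to 0.403) and 0.776 in the blastocyst (0.705 to 0.854). The intervals of the oocyte and the 2-4 cell stage overlapped, and those of the later pig libraries were apart.

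**Figure D3:**
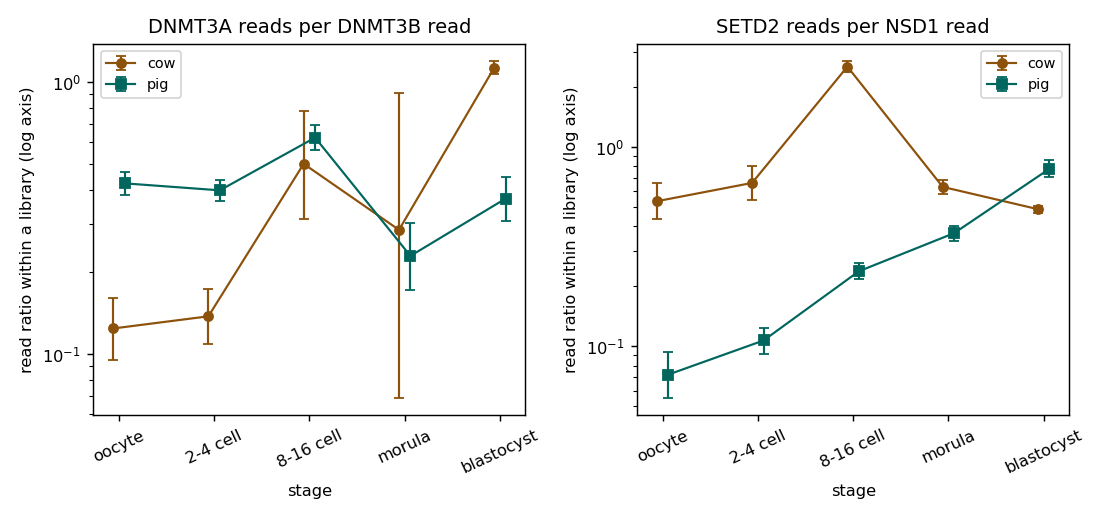
Reads of DNMT3A per read of DNMT3B (left) and of SETD2 per read of NSD1 (right) within each library, on log axes, by stage; bars are exact 95% intervals for counting error. The left panel shows the cow blastocyst at 1.13, and the right panel the cow 8-16 cell library at 2.52 and the pig series from 0.0722 to 0.776.

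The distance between profiles puts a number on these differences. It was the Euclidean distance over the 10 libraries of log2(RPM + 1) centred within each species, a description with no test. DNMT3A and DNMT3B were 2.83 apart and SETD2 and NSD1 3.32 apart, while the distances across the pairs ran from 6.36 to 9.08. Within cow DNMT3A and DNMT3B were 2.65 apart and SETD2 and NSD1 1.93, with 5.47 to 7.60 across the pairs. Within pig the split into pairs did not hold. DNMT3A and DNMT3B were 0.998 apart there, but SETD2 and NSD1 (2.70) were further apart than DNMT3B and NSD1 (2.64). The other pig distances across the pairs ran from 3.24 to 5.46. Among 6279 symbols that reached 10 RPM in a cow library and in a pig library, the 3 nearest to DNMT3A were MYLK (distance 1.98), LRP5 (2.095) and CAMK2G (2.39), where the median distance was 6.73. MYLK encodes a myosin light chain kinase, LRP5 a WNT co-receptor and CAMK2G a calcium-dependent kinase. Nearest to DNMT3B were FARP1 (1.86), MGAT4A (1.95) and RAB15 (2.01), with a median distance of 6.17. Nearest to SETD2 were SLC25A25 (0.901), TRIM35 (1.03) and GTPBP8 (1.25), against a median of 5.72. These 3 had 0 reads in the cow oocyte and 2-4 cell libraries, where SETD2 had 143 and 176 reads, so the likeness is in the shape and not in the level. Nearest to NSD1 were RBPJ (1.198), the DNA-binding factor of Notch signalling, TYW5 (1.36) and RSBN1L (1.42), against a median of 4.77.

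Further genes that write H3K36 methylation were not called from oocyte to blastocyst in either species, but some were called at single steps. In pig 2 of 4 were called lower from the 8-16 cell stage to the morula (median -0.77 against 0.18). In cow 1 of 6 was called higher from the morula to the blastocyst. Of 6 further writers compared from oocyte to blastocyst in cow, 0 were called higher and 0 lower, with a median difference of -0.33 against 0.18 for all genes compared. In pig 0 of 4 were called, with a median of -0.51 against 0.43. On the log2(RPM + 1) scale the NSD1 relative NSD3 was the lowest of the list in both species, at 337 and 89.8 RPM in the cow oocyte and blastocyst libraries (a difference of -1.89) and at 227 and 93.8 RPM in pig (-1.27), and the cow span of NSD3 is overlapped by BAG4 and DDHD2. The highest was SETMAR in cow (19.3 and 28.1 RPM, a difference of 0.52) and SMYD2, which also methylates proteins other than histones, in pig (24.9 and 62.7 RPM, 1.30). SMYD2, at 11.2 and 2.47 RPM in cow, was 4.52-fold lower in RPM, more than NSD3 at 3.75-fold, and was not called at -1.81. With scaling to reads in gene rows 2 of the 6 cow writers were called lower, and with quantile normalisation 1. The cow median turned to 0.05 on reads without mitochondrial genes.

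Of the demethylases that remove H3K36 methylation, 4 of 6 compared were called higher from oocyte to blastocyst in cow and 0 lower. Of all genes compared in cow 21.8% were called higher. The cow median was 2.35 against 0.18 for all genes. KDM2B, a CpG island binding demethylase, led the cow list with 5.07 RPM in the oocyte, 8.79 and 18.4 RPM in the next libraries, 39.2 RPM in the morula and 168 RPM in the blastocyst, a 33.1-fold rise (22.4 to 51.2). In pig 3 of 7 were called higher and 0 lower, where 26.0% of all genes were called higher, with a median of 1.60 against 0.43. KDM4A, a demethylase of H3K9 and H3K36, led there with 3.85, 7.97, 15.8, 83.6 and 34.3 RPM in the order of the stages, 8.92-fold higher in the blastocyst than in the oocyte (5.03 to 17.2). KDM2A and KDM4A were called higher in both species. The lowest cow value was that of KDM4B (0.22). The lowest pig value was that of RIOX1 (-0.08), whose span is overlapped by another row. In cow RIOX1 was called higher, at 2.11. Other scalings gave 3 or 4 called in cow and 2 or 3 in pig.

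Readers of H3K36 methylation had 0 of 12 called higher and 3 called lower in cow (median 0.48 against 0.18), and 0 of 9 higher and 2 lower in pig (median -0.84 against 0.43). Of all genes 18.4% were called lower in cow and 19.2% in pig, so the counts of readers called lower are near the background. The lowest cow reader was PSIP1, a chromatin-bound coactivator with a PWWP domain, which fell from 571 to 28.0 RPM, 20.4-fold. ZMYND11 and MTF2 were the other cow readers called lower, with differences of -3.28 and -3.73, and in pig theirs were -0.89 and -0.84. In pig PHF19, a Polycomb accessory factor that binds H3K36 methylation, went from 115 RPM (387 reads) to 1 read in the blastocyst library, a blastocyst to oocyte ratio of 0.00234 (5.91e-05 to 0.0131), and BRD1 changed by -2.19. MSH6, a mismatch repair protein with a PWWP domain, was the highest reader in cow (1.36), and BRPF3 in pig (1.13).

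**Figure D4:**
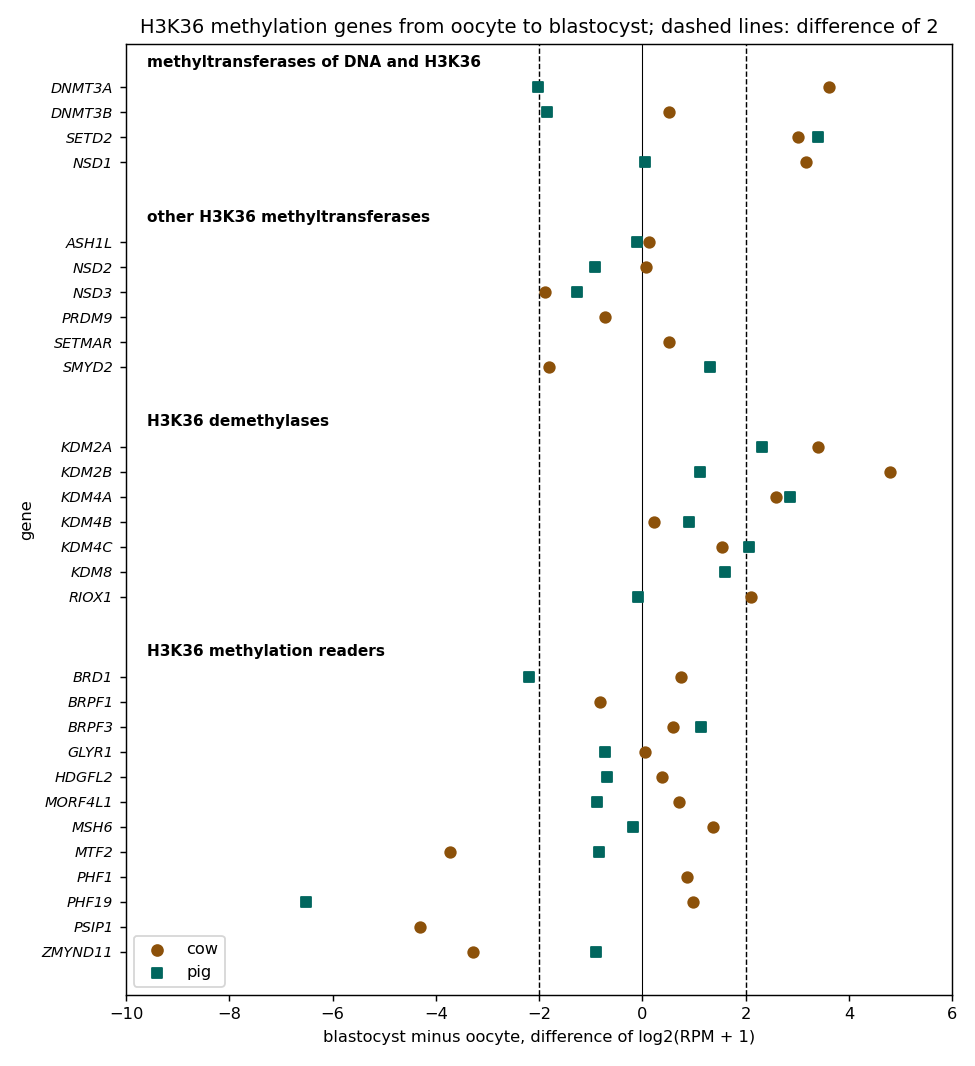
Blastocyst minus oocyte differences of log2(RPM + 1) for the 4 methyltransferases and for the other writers, the demethylases and the readers of H3K36 methylation in cow (circles) and pig (squares); dashed lines mark the call rule at 2. The demethylases lie to the right, with medians of 2.35 in cow and 1.60 in pig, and the other writers stay between the dashed lines.

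Factors that act with SETD2 on elongating polymerase had 0 of 10 called higher and 1 lower in cow (median -0.21 against 0.18) and 1 of 8 higher and 1 lower in pig (median -0.36 against 0.43), where 40.2% and 45.2% of all genes were called in either direction. On reads without mitochondrial genes 1 of the 10 cow genes was called higher. LEO1, a subunit of the PAF1 complex, fell in cow from 4933 to 74.0 RPM, 66.6-fold, and HNRNPL, a SETD2-binding RNA protein, was the highest cow gene (1.72). In pig RTF1 rose from 9.77 to 44.8 RPM (a difference of 2.09), with its span overlapped by a U6 row, and IWS1 fell from 528 to 126 RPM (-2.06). RTF1 was not called with median-of-ratios factors or quantile normalisation, and IWS1 was not called with quantile normalisation or on reads without mitochondrial genes. SUPT6H in pig was just short of the rule at -1.996. With scaling to reads in gene rows and with median-of-ratios factors 2 of the 8 pig genes were called lower. The sign of the cow median turned with 2 scalings, to 0.07 with quantile normalisation and 0.18 on reads without mitochondrial genes.

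Enzymes of H3K4 methylation, a mark whose presence blocks binding by DNMT3 enzymes, had 3 of 12 called higher and 1 lower in cow (median 0.30 against 0.18) and 2 of 8 higher and 1 lower in pig (median -0.91 against 0.43). Of all genes 21.8% were called higher in cow and 26.0% in pig, so these counts are near the background. The H3K4 demethylase KDM5B was the highest in both: in cow it went from 2.23 RPM in the oocyte to 66.1 RPM in the blastocyst, 29.6-fold (16.5 to 59.6), and in pig from 2 reads to 82.3 RPM, a ratio of 139 (38.2 to 1153), where another row overlaps its span. KDM5C was also called higher in both, with differences of 2.45 and 2.60. With quantile normalisation 1 of the 8 pig genes was called higher in place of 2. The lowest cow gene was KDM1B, the H3K4 demethylase needed for methylation of imprinted genes in mouse oocytes, at 70.6 RPM in the oocyte and 5.22 RPM in the blastocyst (-3.53), with a 5S_rRNA row inside its span. In pig it was KMT2A, at 196 and 26.3 RPM (-2.85).

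Among further DNA methylation genes 1 of 8 was called higher and 5 lower in cow (median -3.52 against 0.18), and 2 of 7 higher and 4 lower in pig (median -2.17 against 0.43). Of all genes 21.8% were called higher and 18.4% lower in cow, and 26.0% and 19.2% in pig. The ends of this list were TET1 (7.69) and UHRF1 (-6.23) in cow and TET1 (6.36) and DNMT1 (-10.12) in pig. DNMT1, the maintenance methyltransferase, fell by 3.25 between cow 2-4 cell and 8-16 cell embryos. DNMT3B fell by 3.50 there, and the DNMT3A difference of -1.59 was not called. In pig DNMT1 fell by 4.76 between 8-16 cell embryos and morulae. DNMT3A fell by 3.01 there, and the DNMT3B difference of -1.61 was not called. From the morula to the blastocyst the DNMT1 differences were -0.21 in cow and -3.55 in pig. Those of DNMT3A were 6.46 and 0.98, and those of DNMT3B 5.11 and 0.31.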

How the data were processed

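Total RNA of 10 libraries, 1 per stage and species, was amplified and made into libraries with 8 PCR cycles, per the labels' protocols. The submitters' processing notes name Trim Galore 0.6.4, HISAT2 2.1.0 and the builds UMD3.1 and Sscrofa11.1; counting, strand use and duplicate removal are not given in the sources used here. The deposited values are log2 RPM, with 0 reads written as 0.9 of a read; the unit was read from the values, which were whole multiples of 1 read within 0.1 reads for between 99.985% and 100% of those above 0. Values were raised to the power of 2, reads were recovered, and differences of log2(RPM + 1) were called at 2 or more where one stage had at least 1 RPM. The pseudocount of 1 RPM understates changes of low genes. No test against replicates was possible. Level intervals are Wilson, fold and ratio intervals exact conditional binomial, both at 95%. Of repeated symbols the row with the highest mean was used. The reading of reads, the call rule and the intervals were tested on simulated data. The genes, lists and rules were chosen with earlier results of these data known. Every gene of the group is named with all values and the 3 nearest profiles of each. The highest and lowest member of each list is named, except for the marker lists. ZMYND11, MTF2, BRD1, KDM2A, KDM5C, ATP1B1, SMYD2 and RIOX1 in cow, SUPT6H in pig and the cumulus markers were picked after values were seen. So were the KDM4A comparison between species, the single-step calls of the further writers and the values without mitochondrial genes. Python 3.11.15, numpy 2.4.6, scipy 1.17.1 and pandas 2.3.3 were used. 10 alternatives of pseudocount, minimum, threshold and scaling were run.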

Additional observations from a re-analysis of the deposited data

Results flagged for a closer look

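In 5 cases a gene differed in opposite directions in cow and pig at the same step, with both counting intervals leaving out a ratio of 1. The differences between species were not tested, since each species has 1 library per stage. On the log2(RPM + 1) scale DNMT3A differed by 3.61 in cow and -2.02 in pig from oocyte to blastocyst, and DNMT3B by 0.52 and -1.85. Between 8-16 cell embryos and morulae SETD2 differed by -1.16 in cow and 0.40 in pig, and NSD1 by 0.83 and -0.23. From the morula to the blastocyst NSD1 differed by 0.29 in cow and -1.27 in pig.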

How the results depend on the processing

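No paired analysis was possible because each group has 1 library, and no library could be left out. Of the 10 alternatives, a threshold of 1 in place of 2 raised the called differences at consecutive steps from 4 to 9 of 16 in cow and from 1 to 5 of 16 in pig, where it raised the share over all genes from 16.1% to 44.3% and from 15.7% to 42.8%. The members called from oocyte to blastocyst in pig dropped from 2 to 1 with a pseudocount of 5 RPM, a threshold of 3 or scaling to non-mitochondrial gene reads, since DNMT3A (-2.02) then was at -1.92, under the threshold and at -1.91. The other counts of called members stayed within 1.5 times. The 6 settings of pseudocount and scaling gave 240 values for single differences; 195 stayed within the counting interval of the difference, 45 moved further, and 0 called differences changed sign. Of uncalled differences 11 values changed sign: SETD2 from the cow morula to the blastocyst, DNMT3A at the first 2 pig steps, NSD1 at the first cow step and NSD1 from the pig oocyte to the blastocyst. NSD1 from the cow 2-4 to the 8-16 cell stage passed the threshold with 3 scalings (2.13 to 2.25), and DNMT3A from the cow 8-16 cell stage to the morula with a pseudocount of 0.1 RPM (-2.37). Scaling moved the median of all genes by up to 0.38 (cow, oocyte to blastocyst, non-mitochondrial reads) and -0.31 (pig, the same step, quantile normalisation). Scaling also moved the share of higher calls, for example from 52.4% to 22.5% at the first cow step with median-of-ratios factors. Depth limits the cow morula values of DNMT3A (4 reads) and DNMT3B (14 reads).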
